A study of Mus musculus with 6 samples.

Results

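The AP-1 and immediate early genes described here are 9 of the 31055 features of a single-cell count matrix from mouse lung tumors: Fos, Fosb, Fosl1, Fosl2, Jun, Junb, Jund, Egr1 and Atf3. They were taken by symbol, and all 9 were found. Neoplastic cells were sorted from tumors of 6 mice and profiled by droplet-based 10x 3′ RNA sequencing, in which each transcript copy carries a unique molecular identifier (UMI), so that a count is a count of molecules. All mice carried a Cre-activated oncogene, Lkb1XTR/XTR, an Lkb1 allele that is trapped (inactivated) by Cre and can be restored by FLP, and Rosa26LSL-tdTomato, a red marker of cells that have seen Cre. Tumors were initiated with a Cre lentivirus in young adults and grew for 20 weeks before 2 weeks of treatment. The 3 restored mice also carried FLPo-ERT2, a FLP recombinase at the Rosa26 locus that works only with tamoxifen and is not limited to tumor cells, and received tamoxifen in doses of 4 mg. Of the 3 non-restored mice, 1 without FLPo-ERT2 received tamoxifen, 1 without it received vehicle, and 1 with FLPo-ERT2 received vehicle. The matrix pools all 6 libraries and no column gives the mouse of a cell, so it counts as 1 sample. Restored and non-restored cells therefore could not be set against each other, no test between conditions was possible, and the share of each mouse in a group of cells is unknown.

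AP-1 is a transcription factor made of pairs of basic leucine zipper proteins. FOS-family proteins (FOS, FOSB, FOSL1, also called FRA1, and FOSL2, or FRA2) must pair with a JUN-family protein (JUN, JUNB or JUND), whereas JUN proteins can also pair with each other or with ATF proteins such as ATF3. EGR1 is a zinc finger factor outside AP-1 that is induced by the same signals. Fos, Jun, Junb, Egr1 and Atf3 are immediate early genes: they are transcribed within minutes of growth factor signaling, stress or mechanical disturbance without new protein synthesis, and warm enzymatic dissociation of tissue is a well known trigger. Fosl1 is induced later and more lastingly and is best known from epithelial wound edges and from carcinomas. Here the tumors had been dissociated with collagenase IV, dispase and trypsin before sorting, so the comparison asked which of the 9 genes rose together in all the groups of cells compared and which kept to a cell state.

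Immediate early promoters are known for short sites bound by factors that are already in the cell. The 120 bases before the start of Fos, Fosb, Junb and Jun are shown because these 4 genes varied together in all 3 gates of epithelial cells described below, and because their annotated starts in RefSeq (GRCm38.p6) and in the gene annotation lie within 30 bases of each other. They lie at chr12:85473770-85473889 (plus strand), chr7:19310046-19310165, chr8:84978749-84978868 and chr4:95052223-95052342 (minus strand). Capitals mark the cAMP response element half-site TGACG, the JUN-type AP-1 site TGACATCA and the TATA box TATAAA, searched on either strand.
Fos: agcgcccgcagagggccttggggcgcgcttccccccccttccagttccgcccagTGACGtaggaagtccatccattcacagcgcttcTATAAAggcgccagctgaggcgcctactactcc
Fosb: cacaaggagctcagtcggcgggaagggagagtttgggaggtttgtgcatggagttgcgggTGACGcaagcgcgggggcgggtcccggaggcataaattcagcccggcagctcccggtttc
Junb: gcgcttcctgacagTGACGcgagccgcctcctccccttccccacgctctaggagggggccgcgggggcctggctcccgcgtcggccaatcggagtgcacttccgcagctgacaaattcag
Jun: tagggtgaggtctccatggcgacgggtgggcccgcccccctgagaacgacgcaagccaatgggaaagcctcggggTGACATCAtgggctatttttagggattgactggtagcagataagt

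Within 250 bases before the start, TGACG was present in 4 of the 7 members with a promoter in the table (Fos, Fosb, Junb and Atf3) and in 17.8% of 32851 promoters. In Fos it lay 129 to 125 and 66 to 62 bases before the start, in Fosb 60 to 56 and in Junb 106 to 102. TGACATCA was present in Jun, 45 to 38 bases before the start, and in 2.93% of promoters. TATAAA was present in Fos and in 12.4% of promoters. The full element TGACGTCA (1.55% of promoters), the AP-1 site TGANTCA (6.75%) and the CArG box (1.47%) were in none of the 7 windows. TGACG is part of TGACGTCA, so each full element also counts as a half-site. Fosl2 and Jund held none of the motifs searched, and their starts in the table lie 671 and 1210 bases from the annotated gene start, while that of Atf3 lies 34706 bases away. Fosl1 and Egr1 were not searched.

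Cells with at least 500 genes and at most 20% mitochondrial UMIs were kept, 12183 of 16017, and 3 gates were set on UMIs per 10000 UMIs of a cell. The ATII gate (alveolar type II, Sftpc at least 500, Hopx under 2, Krt8 plus Krt18 under 50) held 6975 cells, the ATI gate (alveolar type I, Hopx at least 15, Krt8 plus Krt18 under 50) held 956, and the keratin-high gate (Krt8 plus Krt18 at least 50) held 1183. Median depth was 21660, 11796.5 and 23490 UMIs per cell, and the median mitochondrial share was 4.28%, 2.22% and 1.96%, in that order. The 10 ATII markers summed to 2147, 584 and 311.5 UMIs per 10000 in the ATII, ATI and keratin-high gates, the 10 ATI markers to 22.3, 153 and 54.3, and the 8 markers of the keratin-positive transitional state to 24.9, 56.9 and 197. These lists include the gating genes, of which Sftpc alone gave 1553 of the 2147 in the ATII gate. Without Sftpc, Hopx, Krt8 and Krt18, the 9 other ATII markers summed to 594, 109 and 119, the 9 other ATI markers to 22, 118 and 50.2, and the 6 other transitional markers to 14.2, 34.6 and 105, so each gate was still highest for its own list. The ATI gate was not free of surfactant transcripts: 259 of its 956 cells held Sftpc at 500 or more. In the 3 gates endothelial markers summed to at most 0.045, fibroblast markers to at most 0.309 and myeloid markers to at most 0.0942 UMIs per 10000. Outside the gates, 223 cells with collagen, 124 with endothelial and 73 with myeloid transcripts served as reference cells, although the sort had kept tdTomato-positive cells and removed those with CD31 on endothelium or CD45 and F4/80 on blood cells.

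A level below is the UMIs of a gene in all cells of a gate, divided by all UMIs of those cells and given per 10000, with an exact Poisson 95% interval, and ratios of 2 levels carry an exact conditional 95% interval. Both cover counting error only, not the spread between mice. A gene was counted as apart when its levels differed at least 2-fold, among genes at 0.05 UMIs per 10000 or more in either gate. A read at the 3′ end counts 1 molecule whatever the transcript's length, so each gene was compared only with itself.

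For 8 of the 9 genes the levels in the 3 gates lay within 2-fold of each other, and Fosl1 was the exception. Fos, on chromosome 12 at 85473890 to 85477273 (GRCm38, plus strand), stood at 27.8 UMIs per 10000 (27.7 to 27.9) in the ATII gate, 29.0 (28.7 to 29.2) in the ATI gate and 24.0 (23.8 to 24.1) in the keratin-high gate. Jun, on chromosome 4 at 95049034 to 95052222 (minus strand), stood at 26.2 (26.2 to 26.3), 23.9 (23.7 to 24.2) and 19.1 (19.0 to 19.3). The keratin-high gate was thus the lowest of the 3 for both genes, by less than 1.5-fold.

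**Figure D1:**
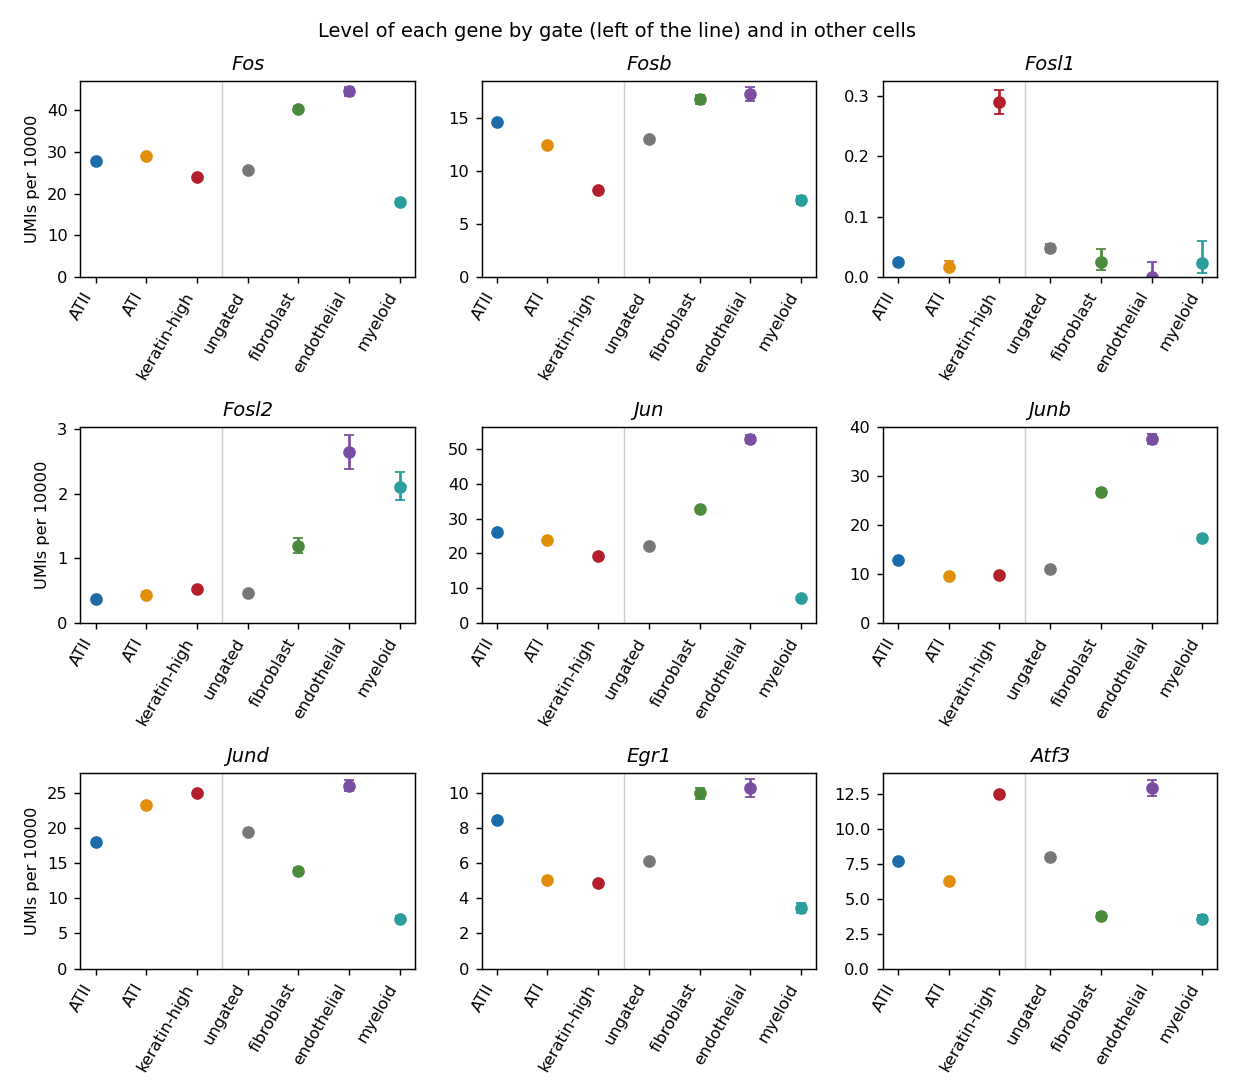
Level of each gene in UMIs per 10000 UMIs, summed over the cells of the 3 gates (left of the gray line) and of ungated, fibroblast, endothelial and myeloid cells (right), with exact Poisson 95% intervals for counting error only; every vertical axis starts at 0. Fosl1 reached 0.290 in the keratin-high gate and stayed under 0.05 in all other groups. Every other gene was highest in the endothelial cells, where the intervals of Fosb, Egr1 and Atf3 overlapped those of another group.

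The other FOS genes went separate ways. Fosb (chromosome 7, 19302696 to 19310051, minus strand), a close relative of Fos, stood at 14.6 (14.5 to 14.6) in the ATII, 12.4 (12.2 to 12.6) in the ATI and 8.18 (8.08 to 8.28) in the keratin-high gate, so it was 1.78-fold (1.76 to 1.80) higher in the ATII than in the keratin-high gate. Fosl2 (chromosome 5, 32135801 to 32157842, plus strand), a FOS relative without the strong activation domain of FOS, stood at 0.375 (0.366 to 0.384), 0.433 (0.399 to 0.470) and 0.523 (0.498 to 0.550), the reverse order on this scale. Fosl1 (chromosome 19, 5447547 to 5455946, plus strand) stood at 0.0243 (0.0220 to 0.0269), 0.0172 (0.0109 to 0.0259) and 0.290 (0.271 to 0.309). Its keratin-high level was 11.9-fold (10.6 to 13.4) over the ATII and 16.8-fold (11.1 to 26.6) over the ATI level, while the ATII and ATI intervals overlapped.

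Of the JUN genes, Junb (chromosome 8, 84974484 to 84978718, minus strand), often a brake on JUN, stood at 12.8 (12.8 to 12.9) in the ATII, 9.55 (9.39 to 9.72) in the ATI and 9.70 (9.59 to 9.81) in the keratin-high gate. Jund (chromosome 8, 70698949 to 70700616, plus strand), the JUN gene that many resting cells express, ran the other way, at 18.1 (18.0 to 18.2), 23.3 (23.1 to 23.6) and 24.9 (24.8 to 25.1). On this scale Jun and Junb were therefore highest and Jund lowest in the ATII gate. The ATI and keratin-high levels of Junb differed by less than their counting error, with a ratio of 1.01 (0.994 to 1.04).

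Egr1 (chromosome 18, 34859823 to 34864984, plus strand) stood at 8.46 (8.42 to 8.51), 5.03 (4.91 to 5.15) and 4.87 (4.80 to 4.95) in the ATII, ATI and keratin-high gates. Atf3 (chromosome 1, 191170296 to 191218039, minus strand), a stress-induced factor, stood at 7.70 (7.65 to 7.74), 6.30 (6.16 to 6.43) and 12.5 (12.4 to 12.7). Egr1 was thus 1.74-fold (1.71 to 1.77) higher in the ATII than in the keratin-high gate, and Atf3 was 1.63-fold (1.61 to 1.65) higher in the keratin-high than in the ATII gate. Against the ATI gate Atf3 was 1.99-fold (1.94 to 2.04) higher in the keratin-high gate, a ratio whose interval spans the 2-fold limit.

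The counts of members at least 2-fold apart between gates lay near the shares over all genes and so say little about the members as a group. Of 9892 genes measured in the keratin-high and ATII gates, 14.7% were at least 2-fold higher in the keratin-high gate and 5.51% in the ATII gate, and of the 9 members 1 was in the first set (Fosl1) and 0 in the second. Between the ATI and ATII gates, 11.8% of 9789 genes were higher in ATI and 6.06% in ATII, and of the 8 members measured none was in either set. Between the keratin-high and ATI gates, 6.99% of 9910 genes were higher in the keratin-high gate and 4.60% in ATI, and of the 9 members 1, again Fosl1, was in the first set. Fosl1 passed the level filter only through the keratin-high gate, and in the comparison of ATI with ATII it fell below it. The median log2 ratio of keratin-high over ATII was -0.22 for the members and 0.37 for all genes.

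The gates also differed in what made up their UMI totals: Sftpc alone gave 1553 of every 10000 UMIs in the ATII gate and 192.5 in the keratin-high gate. The median gene stood 0.37 log2 units higher in the keratin-high and 0.37 higher in the ATI than in the ATII gate, and the part of Sftpc in that shift was not tested. With UMI totals taken without the gate genes, surfactant genes and mitochondrial genes, the log2 ratio of keratin-high over ATII became -1.16 for Fosb and -1.12 for Egr1, both past the 2-fold limit, and 3.25 for Fosl1. Under that scaling the ATI over ATII ratio of Egr1 was -1.03. Relative to the median gene, Jund had a log2 ratio of 0.09 and Fosl2 of 0.11 in keratin-high over ATII, so their excess there was about that of the median gene. For ATI over ATII the direction of Fos and Fosl2 turned under this centring, from 0.06 to -0.31 and from 0.21 to -0.16, and Jund went from 0.37 to about 0.

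Single cells of a gate spread widely for Fos and Atf3, counting noise at their different depths included. In the ATII gate the 10th percentile, median and 90th percentile of Fos over cells were 3.49, 25.8 and 53.9 UMIs per 10000. In the ATI gate they were 0, 21.7 and 79.6, and in the keratin-high gate 1.34, 19.7 and 56.7. For Atf3 the 3 values were 0, 5.08 and 19.5 in ATII, 0, 0.890 and 24.4 in ATI, and 0, 6.43 and 33.2 in keratin-high cells. The ATI gate therefore held the widest range for Fos and the lowest median for Atf3.

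Shares of cells with a transcript were taken after each cell had been thinned to 5000 UMIs, which left out 203, 115 and 93 shallower cells of the ATII, ATI and keratin-high gates. Fos was found in 94.2% of ATII cells (exact binomial 95% interval 93.6 to 94.7), 87.4% of ATI cells (85.0 to 89.6) and 91.1% of keratin-high cells (89.2 to 92.7), against 97.1%, 88.9% and 95.3% without thinning. Egr1 was found in 81.1%, 57.8% and 62.6% of thinned cells and Atf3 in 71.8%, 46.5% and 73.5%. Jund was found in 98.8%, 99.5% and 99.5%, so nearly every cell held it.

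All of Fos, Jun, Junb and Jund were detected in 86.5% of ATII cells (85.7 to 87.3), 72.9% of ATI cells (69.8 to 75.9) and 80.0% of keratin-high cells (77.5 to 82.3). At least 7 of the 9 genes were detected in 65.9%, 41.0% and 54.4% of cells. The same transcripts were found outside the epithelium: Fos in 93.2% of 177 fibroblast, 100% of 77 endothelial and 93.9% of 66 myeloid cells.

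Fosl1 was found in 9.63% of thinned keratin-high cells (7.95 to 11.5), 1.11% of ATII cells (0.872 to 1.39) and 1.19% of ATI cells (0.572 to 2.18). Without thinning these were 27.6%, 4.76% and 1.88%. The reference cells serve for comparison only, since whether they express Fosl1 themselves was not tested. After thinning, 2 of 177 fibroblast cells held a Fosl1 UMI (1.13%, 0.137 to 4.02). So did 0 of 77 endothelial cells, which allows a share of up to 3.90%, and 0 of 66 myeloid cells, which allows 4.55%. Without thinning the shares were 3.14% of 223 fibroblast, 0% of 124 endothelial and 5.48% of 73 myeloid cells. Their median depths before thinning were 15769, 9437 and 24099 UMIs. The ATII and ATI shares were thus near the share in fibroblasts, and the keratin-high share was above it.

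Over single cells, 7 of the 9 genes varied together in every gate. Among Fos, Fosb, Jun, Junb, Jund, Egr1 and Atf3, Pearson's r of log values after thinning ran from 0.48 to 0.73 over the 21 pairs in 6772 ATII cells, from 0.39 to 0.74 in 841 ATI cells and from 0.30 to 0.67 in 1090 keratin-high cells. Fosl1 stood apart, with r from 0.01 to 0.06 in ATII, about 0 to 0.10 in ATI and -0.02 to 0.10 in keratin-high cells. Fosl2 also ran loosely with the others, at 0.12 or less in every gate. These values describe cells of pooled libraries, and for Fosl1 and Fosl2 the counts per cell are sparse, which by itself keeps r low.

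**Figure D2:**
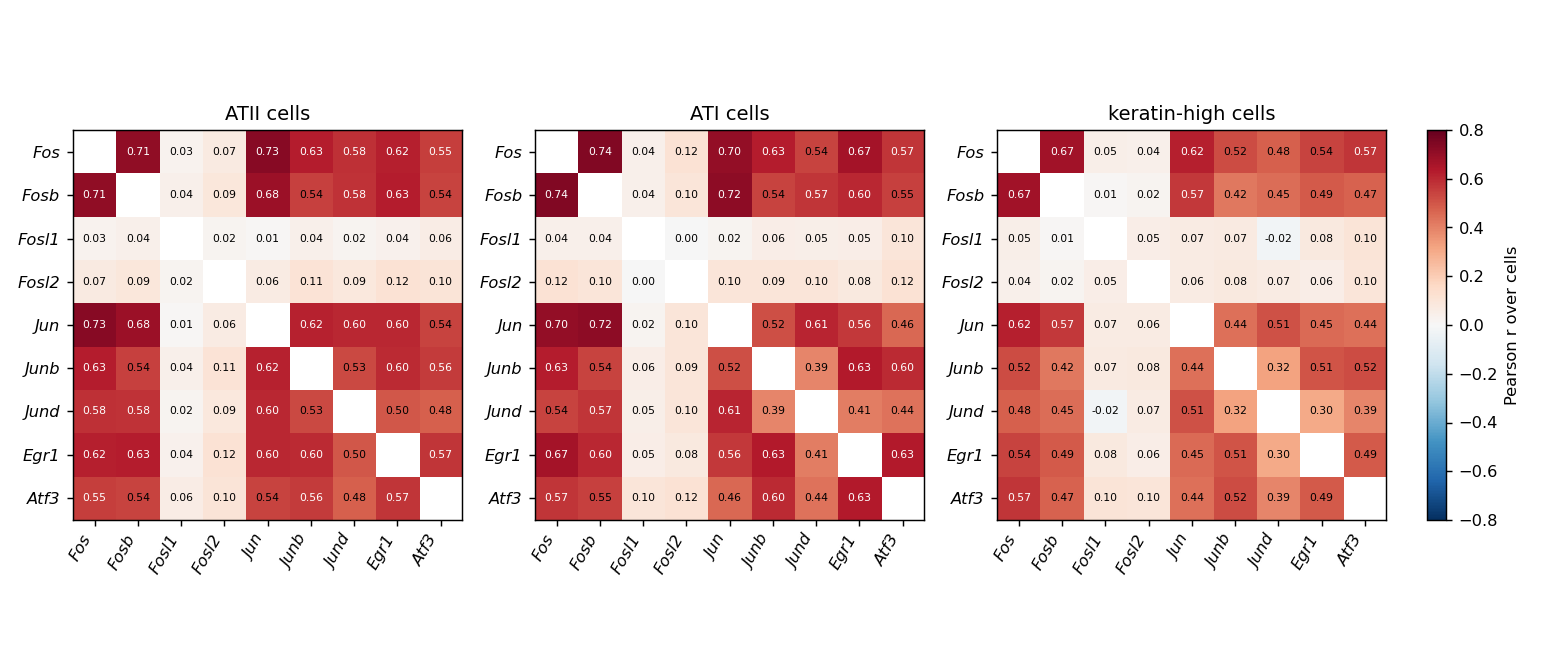
Pearson's r of each pair of genes over single cells of the ATII, ATI and keratin-high gates (log1p of UMIs per 10000 after thinning to 5000 UMIs), with color from -0.8 (blue) to 0.8 (red) and the diagonal left blank. Rows and columns of Fosl1 and Fosl2 are pale in all 3 panels, at 0.12 or less, and the other 7 genes form a red block.

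The genes most like Fos over the 8703 gated cells, of 7571 genes detected in at least 5% of them, were Jun (r = 0.71), Fosb (0.71), Junb (0.62), Egr1 (0.62) and Ier2 (0.58), another immediate early gene. Their r with Fos was over 0.5 within each gate. For Fosl1 the 5 highest were Emp1 (0.25), an epithelial membrane protein gene, Plaur (0.24), the urokinase receptor, Cldn4 (0.23), a tight junction claudin, Ndrg1 (0.23) and Prss22 (0.21). These are weak, and all 5 genes were themselves highest in the keratin-high gate, for example Emp1 at 3.07 against 0.125 in ATII and 0.223 in ATI. No member was among the 5 genes nearest to Fosl1.

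To follow the response that all gates share, each cell was scored by the summed UMIs of 10 companion immediate early genes (Ier2, Btg2, Zfp36, Dusp1, Nr4a1, Csrnp1, Egr2, Egr3, Ier5 and Klf2), none of them a member, after thinning to 5000 UMIs. Gated cells were cut into tertiles, at 0 to 10, 11 to 20 and 21 or more UMIs. The bottom tertile held 35.9% of ATII, 39.7% of ATI and 41.2% of keratin-high cells and the top tertile 31.2%, 37.5% and 32.2%, so every gate spanned the score. Summed over the gate, companion transcripts stood at 31.9, 36.5 and 32.8 UMIs per 10000.

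Fos rose with the score in every gate. From the bottom to the middle to the top tertile it went from 14.0 to 28.7 to 44.9 UMIs per 10000 in ATII cells, from 8.60 to 29.4 to 56.6 in ATI cells and from 9.96 to 24.2 to 43.2 in keratin-high cells. The top level was 3.20-fold (3.18 to 3.23), 6.58-fold (6.38 to 6.78) and 4.34-fold (4.25 to 4.43) the bottom level. In the bottom tertile, where the gates were furthest apart by fold, Fos ranged from 8.60 to 14.0.

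Atf3 rose most steeply. It went from 2.66 to 7.56 to 14.5 in ATII cells, from 0.796 to 3.79 to 15.5 in ATI cells and from 3.69 to 13.3 to 24.1 in keratin-high cells, a rise of 5.44-fold (5.35 to 5.54), 19.5-fold (17.8 to 21.5) and 6.53-fold (6.33 to 6.75). Egr1 rose 4.40-fold (4.33 to 4.47) in ATII, 11.3-fold (10.3 to 12.3) in ATI and 5.55-fold (5.30 to 5.83) in keratin-high cells. Both were low in the bottom tertile of ATI cells, Egr1 at 0.982 and Atf3 at 0.796, and reached 11.1 and 15.5 in the top one.

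Fosb rose 4.03-fold in ATII, 5.38-fold in ATI and 3.82-fold in keratin-high cells, Jun 3.36-, 4.52- and 3.32-fold, and Junb 3.57-, 6.20- and 3.0-fold. Jund rose 2.33-fold (2.31 to 2.35) and 2.56-fold (2.49 to 2.63) in ATII and ATI cells and 1.91-fold (1.88 to 1.95) in keratin-high cells, where its bottom tertile already stood at 18.2. Fosl2 rose 1.77-fold (1.66 to 1.89), 2.14-fold (1.75 to 2.62) and 1.28-fold (1.14 to 1.45).

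In all, 6 of the 9 members (Fos, Fosb, Jun, Junb, Egr1 and Atf3) were at least 2-fold higher in the top tertile in all 3 gates, against 0.385% of 8820 genes. They include the 4 genes whose promoters are printed above. By gate, 7 members in ATII, 8 in ATI and 6 in keratin-high cells passed, against 0.786%, 1.58% and 0.696% of genes. The genes that passed in all gates numbered 34: the 6 members, 9 of the 10 genes of the score itself and 19 others, 5 of which are on a list of other fast-response genes (Cyr61, Klf4, Klf6, Rhob and Trib1) and 2 on the heat shock list (Dnajb1 and Hspa1a). A score of immediate early genes ranks cells by genes known to respond with the members, so this count describes the co-variation shown above from another side.

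**Figure D3:**
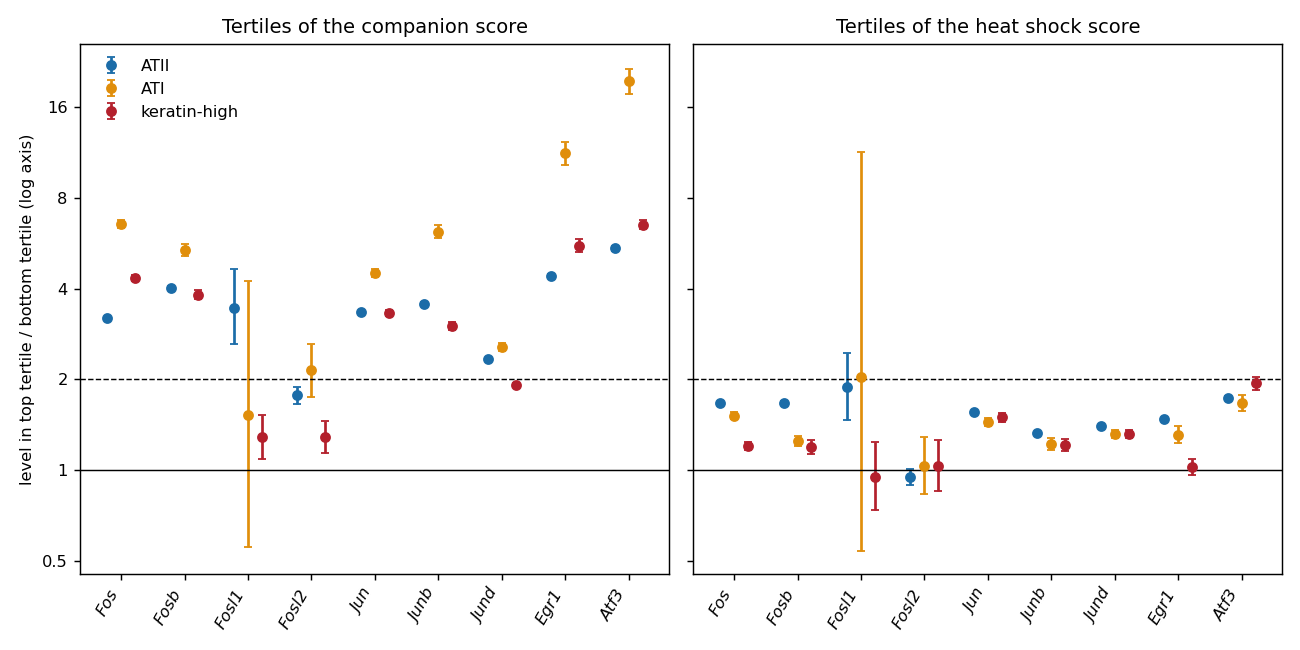
Ratio of each gene's level in the top to the bottom tertile of cells, by gate (blue ATII, orange ATI, red keratin-high), for tertiles of the companion immediate early score (left) and of the heat shock score (right), on a log axis with exact 95% counting intervals; the solid line is 1 and the dashed line 2. Fos, Fosb, Jun, Junb, Egr1 and Atf3 lie above 2 in all gates on the left, up to 19.5 for Atf3 in ATI cells, and all values on the right lie at 2.03 or less.

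Tertiles of 10 heat shock transcripts (Hspa1a, Hspa1b, Dnajb1 and others) gave 0 of the 9 members at least 2-fold higher in the top tertile in all 3 gates, against 0.0906% of 8831 genes (8 genes, 7 of them heat shock genes), so this count tells little about the members. The heat shock tertiles were also the narrower contrast, with a median score of 13 in the bottom and 36 in the top tertile of ATII cells, against 5 and 29 for the companion score. Fos was 1.67-fold (1.66 to 1.68) higher in ATII, 1.52-fold (1.48 to 1.56) in ATI and 1.20-fold (1.16 to 1.23) in keratin-high cells. Atf3 was 1.74-, 1.67- and 1.94-fold higher. The keratin-high gate held more heat shock RNA than the others, 79.2 UMIs per 10000 against 46.5 in ATII and 54.6 in ATI, and 66.4% of its cells fell into the top heat shock tertile. Depth moved with the companion score as well: in ATI cells the median was 15198 UMIs in the bottom and 11252 in the top tertile. Mouse and tertile cannot be told apart, since no column gives the library of a cell.

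Fosl1 changed little with the score in keratin-high cells. In keratin-high cells it stood at 0.236 in the bottom, 0.351 in the middle and 0.303 in the top tertile, a top to bottom ratio of 1.28 (1.08 to 1.52). In the bottom tertile, where Fos was at its lowest, the keratin-high level of Fosl1 was 20.6-fold (15.8 to 27.2) over that of ATII cells (292 against 69 UMIs). It was 13.5-fold (11.0 to 16.5) higher in the middle and 7.66-fold (6.32 to 9.29) in the top tertile. The ATII level went from 0.0114 to 0.0396 between the bottom and the top tertile, 3.46-fold (2.61 to 4.64), while staying below the level filter. Against ATI cells the 3 ratios were 15.3 (7.95 to 33.8), 25.6 (9.91 to 94.6) and 12.9 (6.92 to 27.2), each on 10 or fewer ATI UMIs. Fosl1 was the 1 member at least 2-fold apart between the same gates in every tertile, against 22.5% of 9843 genes.

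**Figure D4:**
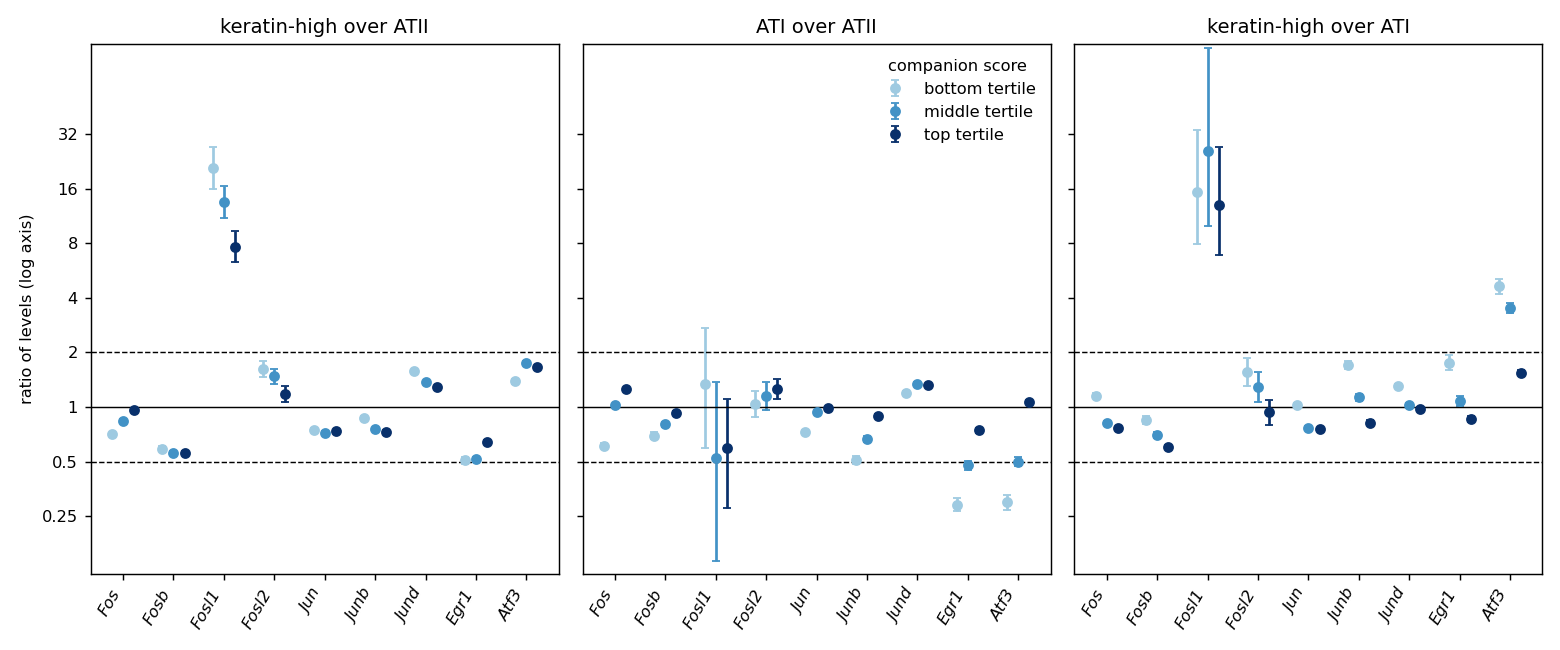
Ratio of each gene's level between 2 gates within the bottom (light), middle and top (dark) tertile of the companion score, for keratin-high over ATII, ATI over ATII and keratin-high over ATI cells, on a log axis with exact 95% counting intervals; the solid line is 1 and the dashed lines 0.5 and 2. Fosl1 lies above 7 in all tertiles of both keratin-high comparisons, and Egr1 and Atf3 in ATI over ATII climb from about 0.3 in the bottom tertile to 0.744 and 1.07 in the top.

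Within tertiles of the score the other ratios between gates also changed, although the tertiles did not make the scores equal. The top tertile has no upper limit, and its median score was 29 in ATII, 36 in ATI and 31 in keratin-high cells. Some genes of the score also differed between gates, as given below. In the bottom tertile ATI cells held 0.291-fold (0.267 to 0.316) the Egr1 and 0.299-fold (0.272 to 0.328) the Atf3 of ATII cells, and in the top tertile 0.744-fold (0.723 to 0.767) and 1.07-fold (1.05 to 1.10). Fos moved likewise, from 0.613-fold (0.596 to 0.631) to 1.26-fold (1.24 to 1.28). Keratin-high over ATI, Atf3 was 4.63-fold (4.21 to 5.11) higher in the bottom, 3.50-fold (3.29 to 3.73) in the middle and 1.55-fold (1.51 to 1.59) in the top tertile. Fosb, by contrast, held a near constant keratin-high to ATII ratio of 0.590, 0.562 and 0.560 across the tertiles.

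Along the keratin axis Fosl1 rose over an order of magnitude, and part of that rise lay below the gate. It stood at 0.0137 (0.0116 to 0.0160) in the 5330 epithelial cells with Krt8 plus Krt18 under 10, 0.0652 (0.0552 to 0.0765) at 20 to 30, 0.0898 (0.0709 to 0.112) at 40 to 50, 0.177 (0.156 to 0.201) at 50 to 75 and 0.503 (0.425 to 0.592) at 150 or more. Neighboring bins overlapped between 20 and 40 and between 75 and 150. Just inside and just outside the keratin threshold it stood at 0.145 (50 to 60) and 0.0898 (40 to 50). Atf3 rose from 6.22 to 12.9 between the lowest and the highest bin, and Fosb went from 13.8 to 6.94. Fos went from 25.2 to 21.4, with its highest level, 30.8, at 10 to 20.

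**Figure D5:**
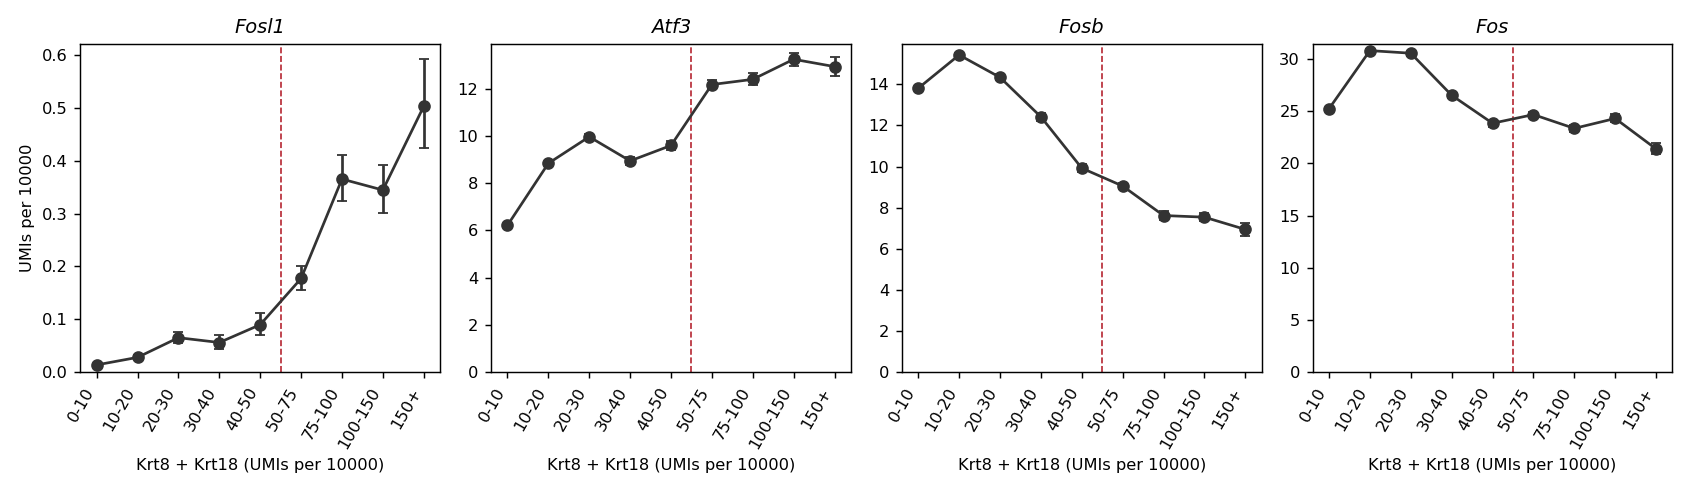
Levels of Fosl1, Atf3, Fosb and Fos in UMIs per 10000 (vertical axes from 0, exact Poisson 95% intervals) in bins of Krt8 plus Krt18 over the gated and ungated epithelial cells, with the keratin-high threshold of 50 as a dashed red line. Fosl1 rises from 0.0137 to 0.503 and Atf3 from 6.22 to 12.9, while Fosb ends at 6.94 after a maximum of 15.4.

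Within the keratin-high gate Fosl1 was lower in cells with more alveolar transcripts. It stood at 0.405 (0.376 to 0.436) in the 620 cells with Hopx under 2, 0.151 (0.128 to 0.176) in the 436 cells with Hopx from 2 to 15 and 0.0187 (0.00510 to 0.0480) in the 127 cells with Hopx of 15 or more. The last value, on 4 UMIs, overlaps that of the ATI gate. Cells with Sftpc under 500 held 0.314 (0.292 to 0.336) and the 165 cells with more held 0.148 (0.115 to 0.189). Fos ran the other way, with 22 in the Hopx-low and 26.6 in the Hopx-high cells, and Atf3 stood at 12.8 and 9.25.

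Among cells with Hopx under 2 and keratins under 50, Fosl1 was higher where Sftpc was lower. It stood at 0.0983 (0.0757 to 0.126) in cells with Sftpc under 250, 0.0440 (0.0350 to 0.0547) at 500 to 1000 and 0.00991 (0.00628 to 0.0149) at 2000 or more. Fosb, Egr1, Atf3 and Jun were lower at both ends of the range than at 500 to 1000. Under 250, at 500 to 1000 and at 2000 or more, Fosb stood at 12.3, 19.0 and 12.1, Egr1 at 5.97, 10.0 and 7.52, Atf3 at 8.21, 9.69 and 6.59, and Jun at 18.4, 27.2 and 25.4. Sftpc is part of each cell's UMI total, so a cell with more of it has less room for the rest.

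Among keratin-high cells with at least 5000 UMIs, the 105 with a Fosl1 UMI after thinning were set beside the 985 without one. Fos stood at 24.0 in both, a ratio of 1.00 (0.979 to 1.02), and Jund at 25.4 and 24.9. Jun was 1.18-fold (1.15 to 1.21), Egr1 1.27-fold (1.21 to 1.33) and Atf3 1.32-fold (1.28 to 1.36) higher in the cells with Fosl1. Lif, a cytokine, was 2.32-fold (2.11 to 2.56) and Plaur 2.23-fold (2.09 to 2.37) higher. F3, tissue factor, was 2.09-fold (2.03 to 2.15) higher. The collagenase gene Mmp13 was 9.38-fold (6.40 to 13.8) and the stromelysin gene Mmp10 7.68-fold (4.15 to 14.2) higher, at levels of 0.178 and 0.0658. Timp1, a metalloproteinase inhibitor, was lower, at 0.0658 against 0.170. The cells with Fosl1 were deeper, at a median of 31983 against 24440 UMIs, and they were picked on a sparse count, so these values are a description.

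Genes known as AP-1 targets in epithelia were high in the keratin-high gate. Of the 15 on the list, 12 reached the level filter against ATII cells, and 11 of those were at least 2-fold higher in the keratin-high gate and 0 lower, beside the 14.7% of all genes. The largest ratios were those of Timp1 at 28.4 (22.6 to 35.9), F3 at 25.4 (24.7 to 26.2), Plaur at 23.7 (22.3 to 25.3) and Lif at 23.3 (21.1 to 25.6). Timp1 and Lif passed the filter only through the keratin-high gate, and Areg is also on the keratin marker list. Against ATI cells 8 of 12 were higher and 0 lower, beside 6.99% of all genes, and there too Timp1 and Lif passed the filter only through the keratin-high gate. Between ATI and ATII cells 4 of 10 were higher in ATI, beside 11.8% of all genes, led by F3 at 4.11-fold (3.90 to 4.32) and Mmp14, a membrane metalloproteinase, at 3.92-fold (3.63 to 4.23), and 2 were lower, beside 6.06% of all genes, among them Cd44, a hyaluronan receptor, by 2.41-fold (2.22 to 2.61). The median log2 ratio of keratin-high over ATII was 1.76 for the list and 0.37 for all genes.

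Of 11 other leucine zipper partners 8 were measured in keratin-high and ATII cells, and 1 was at least 2-fold apart, beside 14.7% of all genes higher and 5.51% lower, Maff, a small MAF protein, 2.24-fold (2.14 to 2.34) higher in the keratin-high gate. Between ATI and ATII cells Batf, a partner of JUN best known from lymphocytes, was 13.1-fold (9.83 to 17.6) and Jdp2, a JUN dimerization protein, 2.17-fold (2.02 to 2.34) higher in ATI, and 2 were lower, among them Batf3 by 3.03-fold (2.18 to 4.32), in all 2 higher and 2 lower of 9 measured, beside 11.8% and 6.06% of all genes. Batf passed the level filter only through ATI and Batf3 only through ATII cells. Between the keratin-high and ATI gates Batf3 (5.75-fold, 4.11 to 8.27) and Maff (2.54-fold, 2.30 to 2.80) were higher and Batf (3.91-fold, 2.81 to 5.47) and Jdp2 (2.08-fold, 1.89 to 2.28) lower in the keratin-high gate, of 9 measured, beside 6.99% and 4.60% of all genes. Here Batf3 passed the level filter only through the keratin-high gate and Batf only through the ATI gate. Of 14 MAP kinases and factors listed as upstream of AP-1 and immediate early genes, 13 were measured. In the keratin-high gate 3 were higher than in the ATII gate, beside the same 14.7%. They were Elk3, a partner of serum response factor, 3.18-fold (2.97 to 3.41), Map2k4, a kinase upstream of JNK, 2.38-fold (2.25 to 2.52) and Elk4 2.01-fold (1.89 to 2.13). The medians of the leucine zipper and upstream lists, 0.49 and 0.55 log2 units, compare with 0.37 for all genes.

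Among the 10 companion genes 9 were measured. Ier5 was 2.16-fold (2.10 to 2.22) higher and Zfp36, which destabilizes messenger RNAs, 2.50-fold (2.44 to 2.58) lower in the keratin-high than in the ATII gate, and Dusp1, a phosphatase of MAP kinases, was 2.02-fold (1.98 to 2.05) higher and Zfp36 2.21-fold (2.12 to 2.29) lower in ATI than in ATII cells. Against ATI cells Csrnp1 and Ier5 were 2.34-fold (2.04 to 2.70) and 2.17-fold (2.05 to 2.30) higher in the keratin-high gate. These counts of 1 or 2 of 9 stand beside shares over all genes of 14.7% higher and 5.51% lower for keratin-high over ATII, 11.8% and 6.06% for ATI over ATII, and 6.99% higher for keratin-high over ATI. Of 12 other fast-response genes, 5 were higher and 0 lower in the keratin-high than in the ATII gate, beside 14.7% and 5.51% of all genes, led by Ctgf at 15.1-fold (13.8 to 16.4), Myc at 4.71-fold (4.28 to 5.18), Cyr61 at 4.68-fold (4.58 to 4.78) and Ier3 at 2.38-fold (2.33 to 2.44). Ctgf and Cyr61, matricellular genes also known as targets of YAP, were higher still in ATI cells, at 33.6-fold (30.8 to 36.6) and 6.36-fold (6.20 to 6.53) over ATII. Ctgf was below the level filter in ATII cells and passed it only through the gate it was compared with. Of the 10 heat shock genes, Hspb1 and Hsph1 were 4.65-fold (4.55 to 4.74) and 2.30-fold (2.17 to 2.43) higher in the keratin-high than in the ATII gate, a count near the 14.7% of all genes.

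Outside the gates the members took other levels again. Endothelial cells held the most of the 9 genes together, 204 UMIs per 10000, against 145.5 in fibroblast cells, 116 in the ATII, 110 in the ATI and 104 in the keratin-high gate and 65.9 in myeloid cells. Junb stood at 37.6 (36.6 to 38.6) in endothelial and 26.7 (26.2 to 27.2) in fibroblast cells, above all 3 gates, and Fosl2 at 2.64 (2.39 to 2.91), 1.20 (1.09 to 1.31) and, in myeloid cells, 2.11 (1.90 to 2.34). Myeloid cells held little Jun, 7.10 (6.71 to 7.51), and little Jund, 7.04 (6.65 to 7.45). Fosl1 was at 0 in endothelial cells, where 3 UMIs would have given 0.0196. In ungated epithelial cells the members lay between the gates, with Fosl1 at 0.0479 (0.0417 to 0.0548).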

How the data were processed

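Cells from 6 mice (3 restored, 3 non-restored) entered 1 pooled matrix. The deposited values were raw counts (whole UMIs per gene and cell, not normalized), which the authors made on the mm10 genome with Cell Ranger 3.0.2, as the matrix header and the methods state. The gene annotation release is not given in the sources used here.

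Counts were read with scipy 1.17.1, numpy 2.4.6 and pandas 2.3.3 (Python 3.11.15), and figures were drawn with matplotlib 3.10.9. Of 16017 cells (266713311 UMIs), 2081 with under 500 genes and 1753 with over 20% mitochondrial UMIs were removed. Since 1 sample allows no test, levels carry exact Poisson, ratios exact conditional binomial and shares exact Clopper-Pearson 95% intervals, for counting error only, and the limit for a count of 0 is 3 counts. Thinning drew UMIs without replacement (seed 42), and deep cells weigh more in summed levels. Doublets were kept and no doublet caller was run. Barcodes were not used here, so cells shared between libraries could not be counted. Gene coordinates came from GENCODE release M21 (GRCm38), promoters from RefSeq. The calculation of ratios and intervals was tested on simulated data.

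The text names the 9 members, at most 4 genes of each list that were at least 2-fold apart, with the largest ratios, and the 5 genes most correlated with Fos and with Fosl1. Beyond that rule, all 5 fast-response genes and both heat shock genes that passed with the score, and the targets given for cells with Fosl1, were named after their values were seen. The members, gates and gene lists were chosen with earlier results of these data known. Alternatives changed the filters, gates, weighting, thinning, UMI totals, score and tertiles. Some items of these lists and of the genotype are not reported here.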

Additional observations from a re-analysis of the deposited data

How the results depend on the processing

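Over 15 alternatives and 27 ratios of members between gates, 384 of 405 values kept their sign. The only ratios past the 2-fold limit were those of Fosl1 in the keratin-high gate, and they kept their sign. The log2 ratio of Fosl1 ranged from 3.20 to 4.37 for keratin-high over ATII and from 3.03 to 4.59 for keratin-high over ATI. The number of members at least 2-fold apart, 1 in keratin-high against ATII, became 3 with UMI totals without gate, surfactant and mitochondrial genes and 3 relative to the median gene (Fosl1 with Fosb and Egr1 lower). For ATI against ATII the 0 became 1 under both (Egr1 lower) and 2 in the bottom tertile of the companion score alone (Egr1 and Atf3 lower). For keratin-high against ATI the 1 became 2, Atf3 joining Fosl1, with at most 10% mitochondrial UMIs, with keratins at 100 or more and in the bottom tertile alone. The 6 members that rose with the companion score in all gates became 0 with heat shock tertiles. They stayed 6 with cells cut at the median of the score, at most 10% mitochondrial UMIs, the mean over cells, without the 5% deepest cells, with thinned levels, and with tertiles cut within each gate. The 1 member apart between gates in every tertile stayed 1 in all 7 alternatives. With a share of over 50% of cells in all gates, 6 members stood after thinning to 5000 UMIs, 7 without thinning and 5 at 2000. The tertiles within gates, the keratin-high gate without Sftpc-high cells and the removal of cycling cells were chosen after seeing the data. No paired analysis was possible because the matrix does not give the mouse of a cell, and no replicate could be left out for the same reason. Fosl1 in ATI cells rests on 23 UMIs, and its order against ATII cells changed with thinning (log2 0.46 against -0.50).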

Other observations

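Beyond the gates, the members varied with the mitochondrial share of a cell. In cells with the Sftpc, Hopx and keratin levels of the ATII gate, Fosb stood at 13.1 UMIs per 10000 under 2% mitochondrial UMIs (313 cells), 12.6 at 2 to 5% (3895 cells), 18.0 at 5 to 10% (1836 cells), 26.6 at 10 to 20% (930 cells) and 25.6 at 20 to 40% (358 cells, outside the filter). Over the same bins Egr1 stood at 7.43, 7.79, 9.63, 13.3 and 12.8 and Jun at 26.3, 25.2, 28.0, 33.1 and 33.5. Fos ranged from 23.4 to 30.5 and Atf3 from 6.89 to 8.74, both highest in the bin under 2%. In the 60 cells at 40% or more Fos, Fosb, Jun, Egr1 and Atf3 were lower than in all other bins, with Fos at 9.60 and Jun at 9.83. The gates differ in mitochondrial share, and its part in their Fosb and Egr1 levels was not tested beyond the limit of 10%, at which the log2 ratio of keratin-high over ATII was -0.77 for Fosb and -0.76 for Egr1, against -0.83 and -0.80.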
